A study of Mus musculus with 2 samples.

Results

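The 10 genes described here encode transcription factors that establish and maintain the endocrine cells of the pancreatic islet: Pdx1, Nkx6-1, Neurod1, Nkx2-2, Pax6, Isl1, Foxa2, Rfx6, Insm1 and St18. They were taken by symbol from the 31054 genes and features of the count tables, and each symbol stood on a single row. They were followed in islet cells of Tg7 mice, in which β-cells carry an excess of the microRNA miR-7a2 and dedifferentiate as the mice become diabetic, and of Wild-type littermates. Both groups were male C57Bl6 mice at 12 weeks of age. Per the study's methods, a rat Ins2-Cre transgene and a floxed-Stop tdTomato reporter at Rosa26 were used to label β-cells, and tdTomato was detected in both libraries. Dissociated islet cells were profiled on the 10x Genomics droplet platform, which counts RNA molecules as unique molecular identifiers (UMIs). Each group was 1 library, and the sources used here do not say how many mice it came from. Genotype and library therefore cannot be told apart, differences between them carry no test, and intervals are at the 95% level for counting error alone.

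Islet endocrine cells arise from a common progenitor, and the same small set of factors is used again in the mature cells to keep hormone genes, glucose sensing and the secretory machinery active. Some of these factors are shared by all endocrine cells, such as Pax6, Isl1, Neurod1 and Insm1. Others, above all Pdx1 and Nkx6-1, set β-cells apart from glucagon cells in the adult mouse islet and hold back the programme of glucagon cells. Loss of several of these factors in β-cells of mice is known to lower insulin expression and to blur β-cell identity.

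The 10 factors fall into a few structural classes. Pdx1 (chr5:147270097-147275848 in GRCm38), which activates the insulin genes, Nkx6-1 (chr5:101659184-101664711), which maintains β-cell identity, and Nkx2-2 (chr2:147176485-147195434), which acts largely as a repressor, carry a homeodomain that binds DNA. Pax6 (chr2:105668896-105698410) carries a paired domain beside its homeodomain, and Isl1 (chr13:116298270-116309688) carries LIM domains through which it pairs with the cofactor Ldb1. Neurod1 (chr2:79452637-79456636) is a basic helix-loop-helix factor that binds E-boxes together with E proteins. Foxa2 (chr2:148042877-148046969) is a forkhead factor that opens chromatin, Rfx6 (chr10:51677760-51730429) is a winged-helix factor, and Insm1 (chr2:146221997-146225020) and St18 (chr1:6487231-6860940) are zinc-finger factors.

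The microRNA overexpressed in Tg7 mice is shown first, because its seed is what any match in the 3′ UTRs of the factors is read against. The mature sequences are from RefSeq (GRCm38.p6), and capitals mark the seed, bases 2 to 8. The sequence of miR-7a-5p is the same from Mir7-2 (chr7:78888295-78888317) and from Mir7-1 (chr13:58392841-58392863). Of 1679 mature miRNA names in the table, only miR-7a-5p and miR-7b-5p have this seed. Mature miRNAs are not among the features counted, so the microRNA itself was not measured.
mmu-miR-7a-5p: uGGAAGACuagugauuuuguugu
mmu-miR-7b-5p: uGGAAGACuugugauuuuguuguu

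The letters complementary to the seed, GTCTTCC, were looked for in the 3′ UTR of each factor, using its longest annotated one (GENCODE vM1 on NCBIM37, an older build than that of the files). They occurred in 2 of the 10 factors, once in Pdx1 and at 2 places in Pax6, and the Pdx1 match extended to the 8 letters GTCTTCCA. Over all 20007 genes with an annotated 3′ UTR, 11.2% held the 7 letters and 3.32% the 8 letters (7.97% among those of similar length to Pdx1). Among genes with a 3′ UTR of similar length (at most 20% shorter or 25% longer), the 7 letters were in 25.1% for a length of 3183 bases as in Pdx1 and in 42.0% for 6805 bases as in Pax6. The matches are shown with up to 11 bases on each side and the matching letters in capitals. They begin 2294 bases after the stop codon in Pdx1 (chr5:148088684-148088712, NCBIM37, plus strand), and 655 and 5744 bases after it in Pax6 (chr2:105537156-105537184 and chr2:105542245-105542273, plus strand). A match is a description of the letters only, and no match was found in the annotated 3′ UTRs of Nkx6-1, Neurod1, Nkx2-2, Isl1, Foxa2, Rfx6, Insm1 and St18. Among β-cell regulators, the study names only Pax6 and Gata6 as having miR-7 sites in this region, and reports that miR-7 represses both. The Pdx1 match is not among the sites it names, and whether miR-7 acts on it was not tested.
Pdx1, 3′ UTR: aaggagatgatGTCTTCCAagggctttga
Pax6, 3′ UTR, first match: tgtaagtatttGTCTTCCctagaaatcct
Pax6, 3′ UTR, second match: agaacttcagaGTCTTCCtgcctgcttcc

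Promoter sequences from RefSeq (GRCm38.p6) were at hand for 8 of the 10 factors, and the 250 bases before an annotated start are shown for 5 of them. Pdx1, Nkx6-1 and Neurod1 are shown because they were the factors with a promoter sequence that were most strongly lower in Tg7 insulin cells, and Isl1 and Rfx6 because they were nearest to equal in level. Both strands were searched for the homeodomain letters TAATTA, the E-box letters CANNTG and the forkhead letters TGTTTAC, and capitals mark the matches. Neither TAATTA, present in 4.84% of the 32851 promoter windows of this length, nor TGTTTAC, present in 3.17%, was found before any annotated start of the 8 factors. CANNTG, present in 66.2% of all windows, was found at 3 places in Pdx1 and 3 in Nkx2-2, and at 1 place each in Neurod1, Isl1, 1 of 2 starts of Pax6 and 1 of 3 starts of Foxa2. It was not found in the windows of Nkx6-1 and Rfx6. In Pdx1 the matches start 128, 122 and 51 bases before the start.
Pdx1, chr5:147269847-147270096, plus strand: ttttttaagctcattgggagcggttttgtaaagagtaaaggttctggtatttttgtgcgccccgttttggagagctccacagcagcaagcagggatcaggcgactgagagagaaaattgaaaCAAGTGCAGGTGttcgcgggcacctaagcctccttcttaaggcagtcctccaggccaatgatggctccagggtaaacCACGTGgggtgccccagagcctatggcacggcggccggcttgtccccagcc
Nkx6-1, chr5:101664712-101664961, minus strand: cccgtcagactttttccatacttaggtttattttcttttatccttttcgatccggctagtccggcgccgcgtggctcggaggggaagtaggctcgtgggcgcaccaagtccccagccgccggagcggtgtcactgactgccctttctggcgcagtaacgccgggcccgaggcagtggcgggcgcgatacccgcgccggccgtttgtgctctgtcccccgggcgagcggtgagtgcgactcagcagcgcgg
Neurod1, chr2:79456637-79456886, minus strand: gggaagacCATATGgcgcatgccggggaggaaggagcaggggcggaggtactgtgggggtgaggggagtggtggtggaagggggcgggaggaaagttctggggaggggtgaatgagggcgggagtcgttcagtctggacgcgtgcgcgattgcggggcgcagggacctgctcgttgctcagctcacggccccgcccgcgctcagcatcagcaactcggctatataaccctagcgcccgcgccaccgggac
Isl1, chr13:116309689-116309938, minus strand: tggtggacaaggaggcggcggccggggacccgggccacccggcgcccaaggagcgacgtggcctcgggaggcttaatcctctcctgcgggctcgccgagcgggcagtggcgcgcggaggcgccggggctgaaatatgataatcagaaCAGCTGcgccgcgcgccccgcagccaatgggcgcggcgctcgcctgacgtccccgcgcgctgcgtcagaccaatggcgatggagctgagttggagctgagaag
Rfx6, chr10:51685268-51685517, plus strand: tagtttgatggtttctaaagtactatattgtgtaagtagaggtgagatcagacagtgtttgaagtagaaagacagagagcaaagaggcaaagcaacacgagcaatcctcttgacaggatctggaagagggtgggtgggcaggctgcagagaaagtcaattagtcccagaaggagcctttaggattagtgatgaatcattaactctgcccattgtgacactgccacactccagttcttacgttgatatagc

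Cells were kept if they had at least 1000 UMIs and at most 20% of UMIs from mitochondrial genes, which left 1004 of 1123 Tg7 barcodes and 755 of 855 Wild-type barcodes, with a median of 24561 and 39681 UMIs. No barcode was shared by the libraries. Each cell was placed in 1 of 4 groups by the hormone with its highest share of UMIs. There were 725 Tg7 and 550 Wild-type insulin cells (Ins1 plus Ins2), 215 and 159 Gcg (glucagon) cells, 21 and 30 Sst (somatostatin) cells, and 43 and 16 Ppy (pancreatic polypeptide) cells. The 7 hormone genes Ins1, Ins2, Gcg, Sst, Ppy, Iapp and Pyy took 42.8% of the UMIs of Tg7 insulin cells and 66.1% of those of Wild-type insulin cells. Levels are therefore given as UMIs per 10000 UMIs of all other genes, summed over the cells of a group. Scaled to the UMIs of all genes instead, each ratio in insulin cells is 1.69 times as large (0.75 in log2).

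The cell groups follow the hormones and not a sort, and the libraries differed in how pure they were. The top hormone was at least 10 times the next in 554 of 725 Tg7 insulin cells (76.4%) and 524 of 550 Wild-type insulin cells (95.3%). Insulin cells of both libraries held UMIs of all 6 β-cell markers examined (Iapp, Slc2a2, Ucn3, Mafa, G6pc2 and Slc30a8), and Gcg cells of both held UMIs of the α-cell markers Ttr, Irx1, Irx2 and Slc38a5. Detection alone did not set the groups apart, since the β-cell markers were also all detected in Gcg cells. There they summed to 299.9 and 46.7 per 10000 non-hormone UMIs in Tg7 and Wild-type, against 2228 and 1432 in insulin cells. Iapp made up most of each sum, with 293.5 and 39.6 in Gcg cells and 2222 and 1387 in insulin cells. The other markers were lower in Tg7 than in Wild-type insulin cells. Slc2a2 stood at 0.457 and 5.24, Ucn3 at 0.605 and 6.65 and Mafa at 0.217 and 5.03. G6pc2 stood at 2.37 and 18.6 and Slc30a8 at 2.03 and 9.25. In Tg7, Slc30a8 was higher in Gcg cells, at 5.83, than in insulin cells. Markers of macrophages, endothelium or other non-endocrine cells made up at least 0.5% of UMIs, with at least 3 markers of 1 type, in 28 Tg7 and 41 Wild-type insulin cells, in 6 and 0 Gcg cells and in 2 and 0 Ppy cells. Endothelial markers summed to 1.08 and 5.25 per 10000 non-hormone UMIs and macrophage markers to 5.59 and 5.33 in Tg7 and Wild-type insulin cells, with each of the 8 endothelial and 9 macrophage markers detected in both. Across the cells with macrophage or endothelial markers, all 10 factors summed to 1 UMI in 30 Tg7 cells and 2 UMIs in 31 Wild-type cells, against levels of 14.0 and 24.2 per 10000 in the insulin cells of the same libraries.

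In insulin cells, 6 of the 10 factors were at least 1.5-fold lower in Tg7 than in Wild-type and none was at least 1.5-fold higher. The same held for 15.8% (lower) and 15.9% (higher) of the 13580 genes that had at least 20 UMIs in total. The median log2 ratio of the 10 factors was -0.66, and that of all those genes was -0.041. All 10 ratios were below 1, but so was the median of all genes, and the log2 ratios of Isl1 (-0.091) and Rfx6 (-0.047) lay near it. The interval lay below 1 for 9 of the factors, and the share of all genes with such an interval was not counted. Summed, the 10 factors gave 19787 UMIs in Tg7 and 22323 UMIs in Wild-type insulin cells, a ratio of 0.581 (0.570 to 0.592), or 0.979 (0.961 to 0.998) when scaled to all UMIs.

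The strongest differences were in Insm1, Nkx6-1, Neurod1 and Pdx1. Insm1, a zinc-finger repressor of endocrine development, had 2588 UMIs and a level of 1.84 per 10000 in Tg7 insulin cells, against 4102 UMIs and 4.44 per 10000 in Wild-type insulin cells. This is 2.42-fold lower (2.30 to 2.54). Nkx6-1 had 2562 UMIs and a level of 1.82 in Tg7, against 4019 UMIs and 4.35 in Wild-type, or 2.39-fold lower (2.28 to 2.52). Both had level intervals that stood far apart between the libraries. Pdx1 had 617 UMIs and a level of 0.438 (0.404 to 0.474) in Tg7, against 899 UMIs and 0.973 (0.911 to 1.04) in Wild-type, or 2.22-fold lower (2.005 to 2.47). Neurod1 had 2055 UMIs and a level of 1.46 in Tg7, against 3034 UMIs and 3.28 in Wild-type, or 2.25-fold lower (2.13 to 2.38). These 4 factors were also below 1 when scaled to all UMIs, with ratios of 0.697 for Insm1, 0.704 for Nkx6-1, 0.748 for Neurod1 and 0.758 for Pdx1.

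Nkx2-2 and St18 formed an intermediate group. Nkx2-2, the homeodomain repressor, had 1516 UMIs and a level of 1.08 in Tg7, against 1616 UMIs and 1.75 in Wild-type, a ratio of 0.615 (0.573 to 0.660). St18, a zinc-finger factor of the Myt family, had 1152 UMIs and a level of 0.817 in Tg7, against 1164 UMIs and 1.26 in Wild-type, a ratio of 0.649 (0.597 to 0.704). Both turned when scaled to all UMIs, to 1.04 for Nkx2-2 and 1.09 for St18.

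The remaining 4 factors stayed within 1.5-fold. Foxa2, the forkhead factor, had 1140 UMIs and a level of 0.809 in Tg7, against 1033 UMIs and 1.12 in Wild-type, a ratio of 0.723 (0.664 to 0.787). Pax6, needed in mouse for normal islet endocrine cells, had 4527 UMIs and a level of 3.21 in Tg7, against 3941 UMIs and 4.27 in Wild-type, a ratio of 0.753 (0.721 to 0.786). Isl1 had 2729 UMIs and a level of 1.94 in Tg7, against 1905 UMIs and 2.06 in Wild-type, a ratio of 0.939 (0.885 to 0.996). Rfx6, the winged-helix factor, had 901 UMIs and a level of 0.639 in Tg7, against 610 UMIs and 0.660 in Wild-type. Its ratio of 0.968 had an interval of 0.872 to 1.07 that holds 1, so no difference was detectable at this depth. Scaled to all UMIs, these 4 factors lay above 1, at 1.22 for Foxa2, 1.27 for Pax6, 1.58 for Isl1 and 1.63 for Rfx6, so that 0 factors were at least 1.5-fold lower and 2 at least 1.5-fold higher, beside 5.04% and 60.8% of all genes on that scale.

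**Figure D1:**
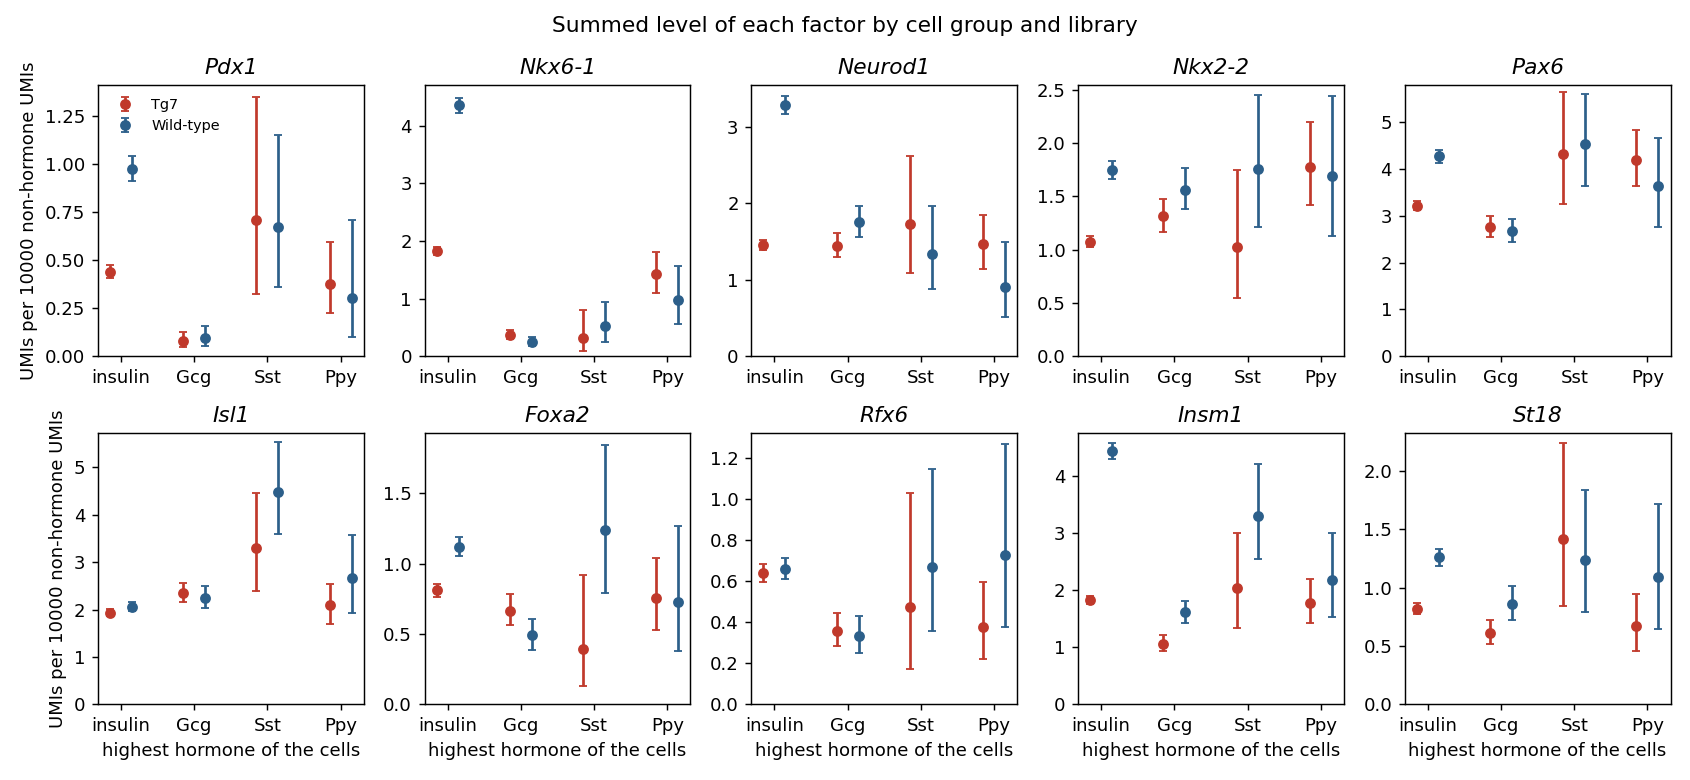
Summed level of each factor (UMIs per 10000 non-hormone UMIs, vertical axes starting at 0) in insulin, Gcg, Sst and Ppy cells, with Tg7 on the left and Wild-type on the right of each pair. Bars are 95% Poisson intervals and cover counting error only. Nkx6-1 in insulin cells stands at 1.82 in Tg7 and 4.35 in Wild-type, while Rfx6 stands at 0.639 and 0.660.

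The make-up of the set does not depend on the scaling. Of all UMIs of the 10 factors in insulin cells, Nkx6-1 took 12.9% in Tg7 and 18.0% in Wild-type, Insm1 13.1% and 18.4%, and Neurod1 10.4% and 13.6%. Pax6 took 22.9% in Tg7 and 17.7% in Wild-type, Isl1 13.8% and 8.53%, and Rfx6 4.55% and 2.73%. Pdx1 took 3.12% in Tg7 and 4.03% in Wild-type, and Foxa2 5.76% and 4.63%. Nkx2-2 at 7.66% and 7.24% and St18 at 5.82% and 5.21% had intervals that overlapped between the libraries. Within the set, Pax6, Isl1, Rfx6 and Foxa2 thus held a larger part of the UMIs in Tg7, and Nkx6-1, Insm1, Neurod1 and Pdx1 a smaller part.

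The count of lower factors was 6 in insulin cells without the cells with non-endocrine markers. It was 6 in cells with a single dominant hormone and 5 in cells with a tdTomato UMI. The median log2 ratio of all genes in these subsets was -0.013, -0.053 and -0.043, in that order. The share of all genes past 1.5-fold was not counted in them. Without the cells with non-endocrine markers the ratios ran from 0.401 for Insm1 to 0.937 for Rfx6. In the 554 Tg7 and 524 Wild-type insulin cells with a single dominant hormone, the ratios were 0.403 for Insm1, 0.425 for Nkx6-1, 0.432 for Neurod1 and 0.459 for Pdx1. In the 210 Tg7 and 266 Wild-type insulin cells with at least 1 tdTomato UMI, the reporter of the insulin lineage, they were 0.379 for Insm1, 0.411 for Nkx6-1, 0.419 for Neurod1 and 0.448 for Pdx1. Isl1 and Rfx6 in tdTomato cells had ratios of 0.870 (0.797 to 0.9495) and 0.929 (0.796 to 1.08). Within Tg7 insulin cells, cells with and without a tdTomato UMI had levels of Nkx6-1 of 1.83 and 1.81, a ratio of 1.01 (0.935 to 1.10). The interval of this ratio held 1 for each of the 10 factors in Tg7. In Wild-type it lay above 1 for 5 factors, from 1.11 for Insm1 to 1.16 for Foxa2, but cells with non-endocrine markers made up 2 of the 266 cells with a tdTomato UMI and 39 of the 284 without. Without those cells the interval held 1 for all 10 factors in Wild-type, and in Tg7 for all but Nkx2-2, at 0.893 (0.801 to 0.994).

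**Figure D2:**
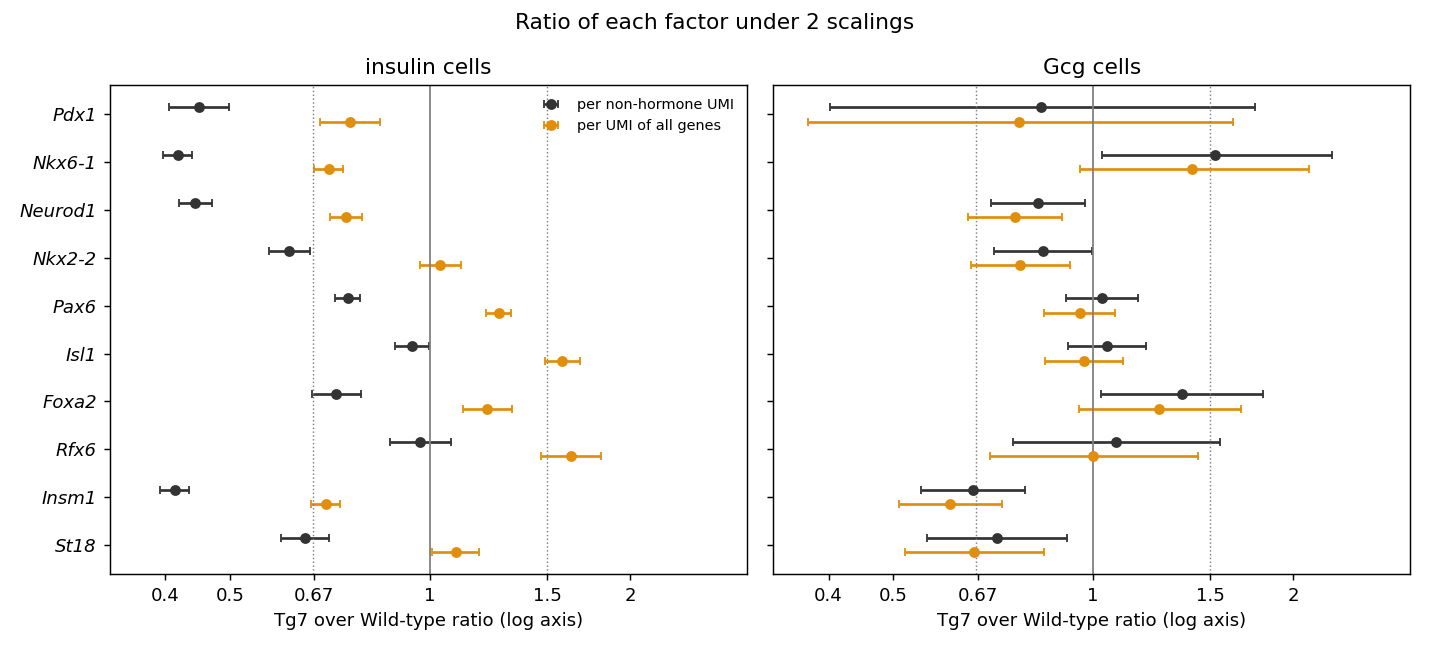
Tg7 over Wild-type ratio of each factor in insulin cells (left) and Gcg cells (right) on a log axis, scaled to non-hormone UMIs (dark points) and to UMIs of all genes (orange points). Bars are 95% conditional exact binomial intervals, the solid line marks 1 and the dotted lines 1.5-fold. In insulin cells Insm1, Nkx6-1, Neurod1 and Pdx1 lie below 1 on both scales, while Isl1 moves between 0.939 and 1.58.

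To see how many cells carried each factor, the share of insulin cells with at least 1 UMI was compared after each cell was thinned to 2000 non-hormone UMIs, which left out 19 Tg7 and 6 Wild-type insulin cells with fewer. Nkx6-1 was detected in 189 of 706 Tg7 insulin cells (26.8%, 23.5 to 30.2) and 308 of 544 Wild-type insulin cells (56.6%, 52.3 to 60.8). Insm1 was detected in 27.9% (24.6 to 31.4) and 53.3% (49.0 to 57.6), and Neurod1 in 24.9% (21.8 to 28.3) and 45.8% (41.5 to 50.1). Pdx1 had a UMI in 61 Tg7 insulin cells (8.64%, 6.67 to 10.96) and 88 Wild-type insulin cells (16.2%, 13.2 to 19.5). For these 4 factors the intervals of the libraries did not overlap, and the same was true of Nkx2-2 (19.0% and 26.1%) and Pax6 (43.6% and 54.4%). The share of all genes with intervals apart at this depth was not counted, so there is no background for these factors.

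The shares of Isl1 and Rfx6 were close to equal. Isl1 had a UMI in 197 of 706 Tg7 insulin cells (27.9%, 24.6 to 31.4) and 154 of 544 Wild-type insulin cells (28.3%, 24.6 to 32.3). Rfx6 had one in 84 Tg7 cells (11.9%, 9.60 to 14.5) and 65 Wild-type cells (11.9%, 9.34 to 15.0). Foxa2 at 14.2% and 17.6% and St18 at 14.4% and 19.1% had intervals that overlapped. Without thinning, the share for Nkx6-1 was 83.7% in Tg7 and 91.1% in Wild-type, and for Isl1 80.8% and 81.6%, at median depths of 29701 and 47806 UMIs. As background, 0 of 30 Tg7 and 0 of 30 Wild-type cells with macrophage or endothelial markers held a UMI of any of the 10 factors at this depth, which allows a share of up to 10% (3 cells). The share of Pdx1 in Tg7 insulin cells, 8.64%, did not exceed that limit, while the other 9 shares in Tg7 and all 10 in Wild-type did. That limit is set by the 30 cells available, none of which held a UMI. By summed level, Pdx1 stood at 0.438 per 10000 in Tg7 insulin cells. This is above the 0.159 that a count of 0 allows (3 UMIs) in the Tg7 cells with macrophage or endothelial markers. Cells with those markers had median depths of 4844 and 7914 UMIs before thinning, in Tg7 and Wild-type.

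Fewer factors were also seen together in a Tg7 insulin cell. At 2000 non-hormone UMIs the median was 2 of the 10 factors per Tg7 insulin cell and 3 per Wild-type insulin cell, with means of 2.19 and 3.29. At least 5 factors were seen in 37 Tg7 insulin cells (5.24%, 3.72 to 7.15) and 130 Wild-type insulin cells (23.9%, 20.4 to 27.7). Cells with none of the 10 numbered 85 in Tg7 (12.0%, 9.73 to 14.7) and 42 in Wild-type (7.72%, 5.62 to 10.3). That order changed with the depth. At 5000 non-hormone UMIs, which left out 52 Tg7 and 26 Wild-type cells, there were 14 such cells in Tg7 (2.08%, 1.142 to 3.47). In Wild-type there were 26 (4.96%, 3.27 to 7.19), and the medians were 4 and 6 factors. Without thinning there were 37 (5.10%) and 38 (6.91%). Insulin cells with non-endocrine markers, 28 in Tg7 and 41 in Wild-type before thinning, were kept in all these shares. Their part in the cells with none of the 10 was not tested. In Gcg cells at 2000 non-hormone UMIs the median was 2 in both libraries, with means of 1.67 and 1.89.

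**Figure D3:**
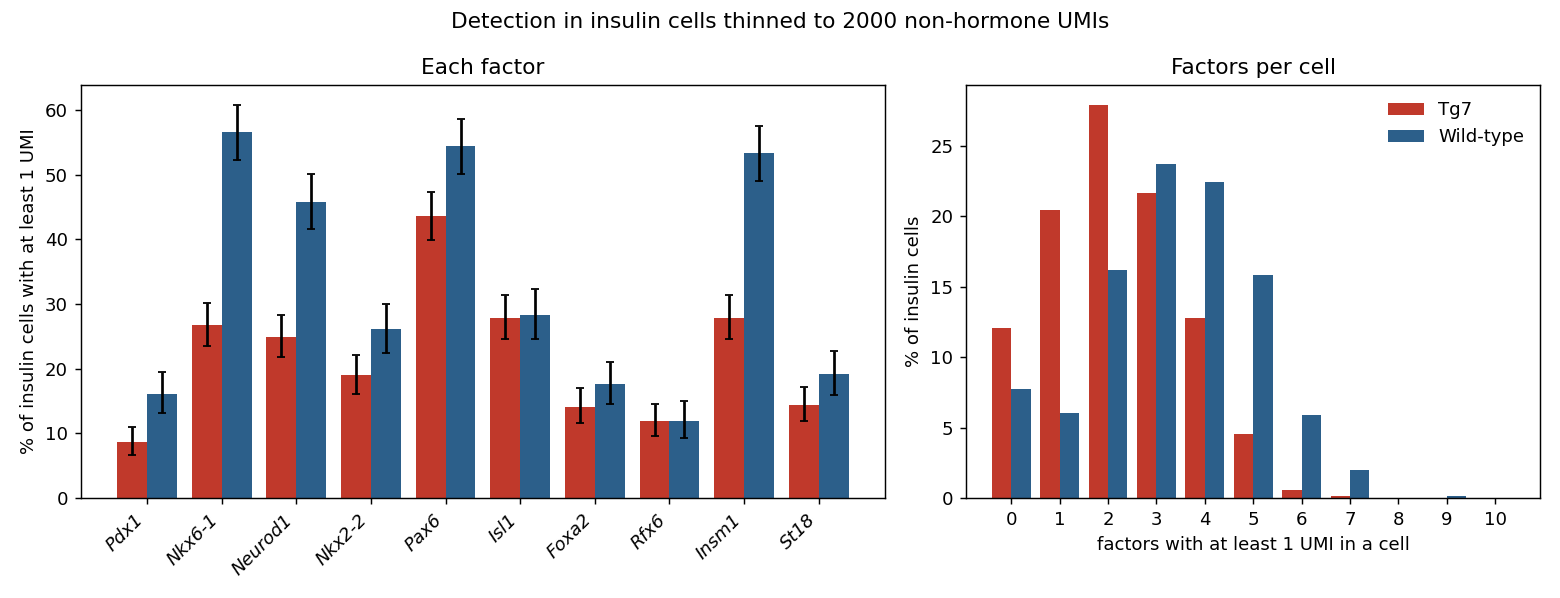
Left, share of insulin cells (%) with at least 1 UMI of each factor after thinning to 2000 non-hormone UMIs, for Tg7 (left bar, n = 706 cells) and Wild-type (right bar, n = 544 cells), with exact 95% binomial intervals. Right, share of insulin cells (%) by the number of the 10 factors seen in a cell. Nkx6-1 stands at 26.8% in Tg7 and 56.6% in Wild-type, and 5 or more factors at 5.24% and 23.9%. Insulin cells with non-endocrine markers were kept.

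The levels in insulin cells were next set against those in the other cells of the same library. Nkx6-1 in insulin cells was 4.94 times (3.96 to 6.23) its level in Gcg cells in Tg7, and 18.0 times (13.2 to 25.2) in Wild-type. Pdx1 in insulin cells was 5.42 times (3.40 to 9.20) its level in Gcg cells in Tg7, and 10.1 times (6.17 to 17.7) in Wild-type. The intervals of these multiples did not overlap between the libraries for Nkx6-1 and overlapped for Pdx1. In single-hormone cells alone, Nkx6-1 was 15.0 times (9.47 to 25.4) as high in insulin as in Gcg cells of Tg7 and 21.5 times (14.9 to 32.4) in Wild-type, and Pdx1 was 32.5 times (8.94 to 269) and 33.5 times (13.1 to 123), so that the intervals overlapped for both genes. The level of Neurod1 was alike in the 4 groups of Tg7, at 1.46 in insulin, 1.45 in Gcg, 1.73 in Sst and 1.46 in Ppy cells, and all 4 intervals overlapped. In Wild-type, Neurod1 was highest in insulin cells at 3.28, apart from Gcg cells at 1.75, Sst cells at 1.34 and Ppy cells at 0.907, which overlapped with their neighbours in this order. Insm1 in Tg7 stood at 2.05 in Sst, 1.84 in insulin and 1.78 in Ppy cells, which overlapped, and at 1.06 in Gcg cells, which lay apart. In Wild-type it was highest in insulin cells at 4.44, apart from 3.30 in Sst cells, and 2.18 in Ppy and 1.61 in Gcg cells overlapped.

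Among the groups, Pdx1 in Tg7 was 0.708 in Sst, 0.438 in insulin and 0.376 in Ppy cells, which overlapped, and 0.0808 in Gcg cells, which lay apart from all of these. In Wild-type it was 0.973 in insulin, 0.671 in Sst, 0.302 in Ppy and 0.0966 in Gcg cells, with each neighbour overlapping the next. Nkx6-1 in Tg7 was 1.82 in insulin and 1.42 in Ppy cells, which overlapped, and 0.368 in Gcg and 0.315 in Sst cells. In Wild-type, Nkx6-1 in insulin cells at 4.35 lay apart from 0.967 in Ppy, 0.516 in Sst and 0.242 in Gcg cells. Pdx1 and Nkx6-1 therefore had their lowest or near lowest levels in Gcg cells in both libraries.

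The shared endocrine factors had another order. Isl1 was highest in Sst cells, at 3.31 in Tg7 and 4.49 in Wild-type, and lowest in insulin cells, at 1.94 and 2.06, with Gcg cells at 2.36 and 2.25 and Ppy cells at 2.09 and 2.66. In Tg7 the Isl1 interval of Sst cells overlapped those of Gcg and Ppy cells, and that of insulin cells overlapped Ppy cells. In Wild-type the Sst cells lay apart, and insulin, Gcg and Ppy cells overlapped. Pax6 was also highest in Sst cells, at 4.33 in Tg7 and 4.54 in Wild-type, and lowest in Gcg cells, at 2.76 and 2.68, with Ppy cells at 4.20 and 3.63. Its interval in Sst cells overlapped those of insulin and Ppy cells in both libraries, and in Wild-type Gcg cells overlapped Ppy cells. In Tg7 the Pax6 level of insulin cells lay below that of Ppy cells and above that of Gcg cells with no overlap, whereas in Wild-type insulin, Sst and Ppy cells overlapped. Nkx2-2 in Tg7 was 1.78 in Ppy and 1.32 in Gcg cells, both apart from 1.08 in insulin cells, with 1.02 in Sst cells, and in Wild-type its 4 levels between 1.56 and 1.75 all overlapped. Foxa2 ranged in Tg7 from 0.394 in Sst to 0.809 in insulin cells with all intervals overlapping, and in Wild-type from 0.489 in Gcg to 1.24 in Sst cells. Rfx6 was lowest in Gcg cells, at 0.359 in Tg7 and 0.332 in Wild-type, and St18 as well, at 0.615 and 0.858, all apart from the insulin cells of the same library but not from the Ppy cells.

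In Gcg cells, 1 of the 10 factors was at least 1.5-fold lower in Tg7 and 1 at least 1.5-fold higher, beside 10.6% and 9.28% of 9981 genes. The median log2 ratio was -0.10 for the factors and -0.028 for all those genes. Insm1 was the lower one, with 237 UMIs and a level of 1.06 in Tg7 Gcg cells against 267 UMIs and 1.61 in Wild-type Gcg cells, a ratio of 0.660 (0.551 to 0.789). St18 had 137 UMIs in Tg7 against 142 in Wild-type, a ratio of 0.717 (0.563 to 0.913). Neurod1 at 0.825 (0.702 to 0.970) and Nkx2-2 at 0.841 (0.709 to 0.998) also had intervals below 1. Pax6 at 1.03, Isl1 at 1.05, Rfx6 at 1.08 and Pdx1 at 0.836 had intervals that held 1. Scaled to all UMIs, 2 factors were lower and 0 higher, beside 15% and 7.17% of all genes. Without the cells with non-endocrine markers 0 were lower and 1 higher, a setting in which the share of all genes was not counted.

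Nkx6-1 was the higher one, with 82 UMIs and a level of 0.368 in Tg7 Gcg cells against 40 UMIs and 0.242 in Wild-type Gcg cells, a ratio of 1.52 (1.03 to 2.28). In Tg7 these UMIs came mostly from cells with a further hormone. The 48 Tg7 Gcg cells whose top hormone was under 10 times the next held 64 of the 82 UMIs, a level of 0.791, and the 167 others held 18 UMIs, a level of 0.127. In Wild-type, 23 such cells held 12 UMIs, a level of 0.384, and the 136 others held 28 UMIs, a level of 0.209. In single-hormone Gcg cells alone the ratio turned to 0.609 (0.317 to 1.1398). Insulin took 2.01% of the UMIs of Tg7 Gcg cells and 0.346% of those of Wild-type Gcg cells. Ppy took 1.95% and 0.771%, and Sst 0.228% and 0.666%. Which further hormone the cells with Nkx6-1 UMIs held was not counted. Scrublet, which calls doublets, marked 3 Tg7 and 0 Wild-type Gcg cells, and without its calls the ratio was 1.48 (0.995 to 2.22). The part of doublets and of free RNA in these values was not tested.

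Pdx1 in Gcg cells lay mostly in cells with a further hormone in both libraries, unlike Nkx6-1, for which this held in Tg7 alone. It had 16 of its 18 UMIs in the mixed cells of Tg7, a level of 0.198, and 12 of 16 UMIs in those of Wild-type, a level of 0.384. The single-hormone Gcg cells held 2 UMIs in Tg7 and 4 UMIs in Wild-type, a level of 0.0141 and 0.0298, below the 0.159 and 0.104 that a count of 0 allows (3 UMIs) in the cells with macrophage or endothelial markers. The other 8 factors had mixed over single-hormone ratios between 0.934 and 1.41 in Tg7 Gcg cells. Foxa2 in Gcg cells had 148 UMIs and a level of 0.664 in Tg7 against 81 UMIs and 0.489 in Wild-type, a ratio of 1.36 (1.03 to 1.80), and 1.27 (0.903 to 1.80) in single-hormone cells.

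**Figure D4:**
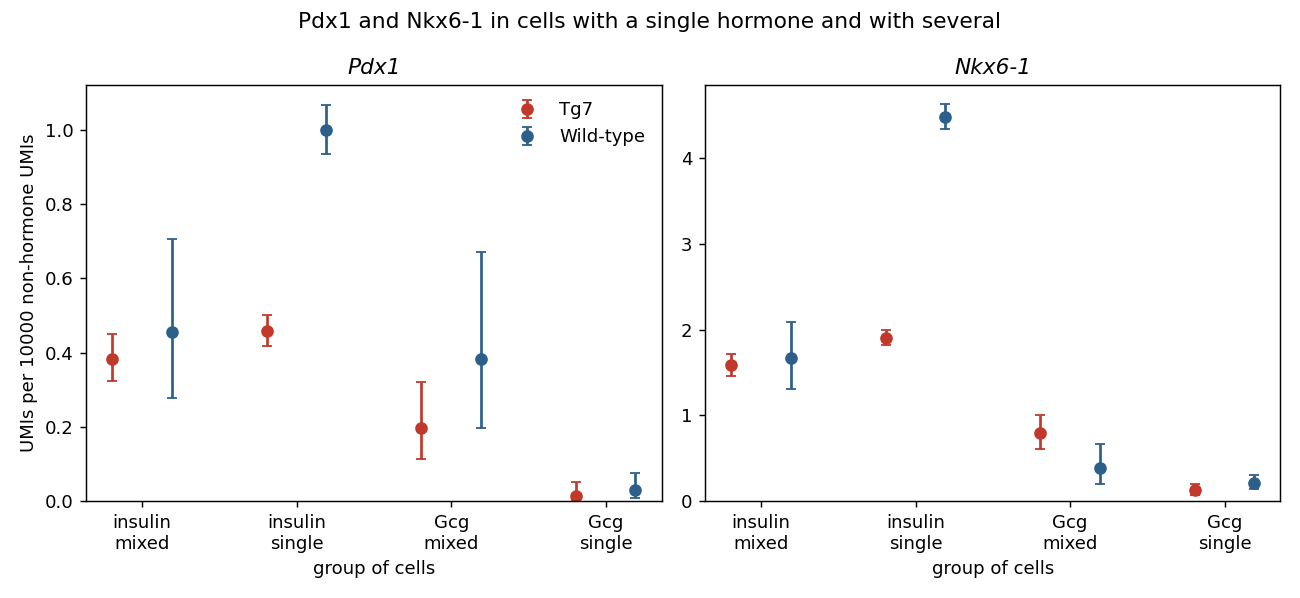
Level of Pdx1 (left) and Nkx6-1 (right) in UMIs per 10000 non-hormone UMIs in insulin and Gcg cells, split into mixed cells (top hormone under 10 times the next) and single-hormone cells, for Tg7 and Wild-type, with 95% Poisson intervals. Nkx6-1 in Gcg cells is at 0.791 in mixed and 0.127 in single-hormone cells of Tg7.

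Mixed cells among the insulin cells were compared in the same way. In the 171 mixed Tg7 insulin cells, Nkx6-1 stood at 1.58 against 1.91 in the 554 single-hormone cells, a ratio of 0.831 (0.758 to 0.911). Isl1 at 1.19 (1.09 to 1.29) and Nkx2-2 at 1.20 (1.08 to 1.34) were higher in the mixed cells of Tg7. In Wild-type only 26 insulin cells were mixed, 11 of them with non-endocrine markers, and all 10 ratios were below 1, from 0.371 for Nkx6-1 to 0.747 for Nkx2-2. Without the cells with non-endocrine markers, 15 mixed Wild-type cells were left and the ratios ran from 0.489 (0.381 to 0.618) for Nkx6-1 to 1.01 (0.765 to 1.32) for Nkx2-2. The interval then lay below 1 for Nkx6-1, Pdx1, Insm1 and Neurod1 and held 1 for the other 6.

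In Sst cells, 8 factors had at least 20 UMIs over both libraries, and 3 of these were at least 1.5-fold lower in Tg7 and none higher, beside 16.1% and 13.8% of 3059 genes. Foxa2 had 5 UMIs in 21 Tg7 Sst cells and 24 UMIs in 30 Wild-type Sst cells, a ratio of 0.318 (0.0947 to 0.850). Without the 1 Tg7 Sst cell that the doublet caller Scrublet marked, 2 UMIs were left in Tg7 and the ratio was 0.145 (0.0166 to 0.584). Insm1 had 26 and 64 UMIs, a ratio of 0.620 (0.377 to 0.992), and Nkx2-2 had 13 and 34 UMIs, a ratio of 0.583 with an interval that held 1 (0.282 to 1.13). Nkx6-1, with 4 and 10 UMIs, and Rfx6, with 6 and 13 UMIs, fell short of 20 UMIs. In Ppy cells, 2 of 10 factors were at least 1.5-fold lower in Tg7 and 1 higher, beside 12.8% and 17.9% of 5006 genes. They were Rfx6, with 18 UMIs in 43 Tg7 cells and 12 UMIs in 16 Wild-type cells, St18 with 32 and 18 UMIs, and Neurod1, the higher one, with 70 and 15 UMIs. Scaled to all UMIs, 1 was lower and 2 were higher, beside 7.97% and 24.8% of all genes. On the non-hormone scale all 10 intervals in Ppy cells held 1, so at this depth no difference was detectable there. On the scale of all UMIs the interval of Neurod1 lay just above 1, with a ratio of 1.79 (1.01 to 3.37).

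Insulin cells were next ordered by the share of their UMIs from insulin and split into quartiles within each library, without the cells with non-endocrine markers, a choice made after the values were seen. The median insulin share ran from 15.1% to 41.1% over the Tg7 quartiles and from 50.02% to 70.0% over the Wild-type quartiles. Pdx1, an activator of the insulin genes, was at 0.407, 0.426, 0.412 and 0.571 in the Tg7 quartiles from low to high insulin share, with a highest over lowest ratio of 1.405 (1.11 to 1.78). In the Wild-type quartiles it was at 0.928, 1.11, 0.983 and 1.05, with a ratio of 1.13 (0.934 to 1.38). Nkx6-1 was at 1.73, 1.88, 1.87 and 1.88 in Tg7 and at 4.42, 4.76, 4.71 and 4.24 in Wild-type, and its ratio had an interval that held 1 in both.

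Nkx2-2 went the other way in Tg7, at 1.26, 1.10, 1.08 and 0.831 from low to high insulin share, a ratio of 0.661 (0.558 to 0.782), and its ratio in Wild-type was 0.883 (0.764 to 1.02). Neurod1 had a ratio of 0.762 (0.663 to 0.875) among Tg7 quartiles, against 0.930 (0.839 to 1.03) among those of Wild-type. Pax6 at 0.840, Isl1 at 0.858 and St18 at 0.775 also had intervals below 1 in Tg7. In Wild-type the interval lay below 1 for Foxa2 (0.717), St18 (0.818) and Insm1 (0.858). Whether the ratios of the libraries differ was not tested. With the cells with non-endocrine markers kept, all 28 Tg7 and 41 Wild-type of them, the ratio of Pdx1 was 1.55 in Tg7 and 1.47 in Wild-type. For Nkx6-1, Neurod1, Pax6 and Isl1 in Wild-type it then lay between 1.15 and 1.19, with intervals above 1. The level of every factor in the top Tg7 quartile can be read against the bottom Wild-type quartile, with median insulin shares of 41.1% and 50.02%, and Nkx6-1 was at 1.88 in that Tg7 quartile and 4.42 in that Wild-type one.

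**Figure D5:**
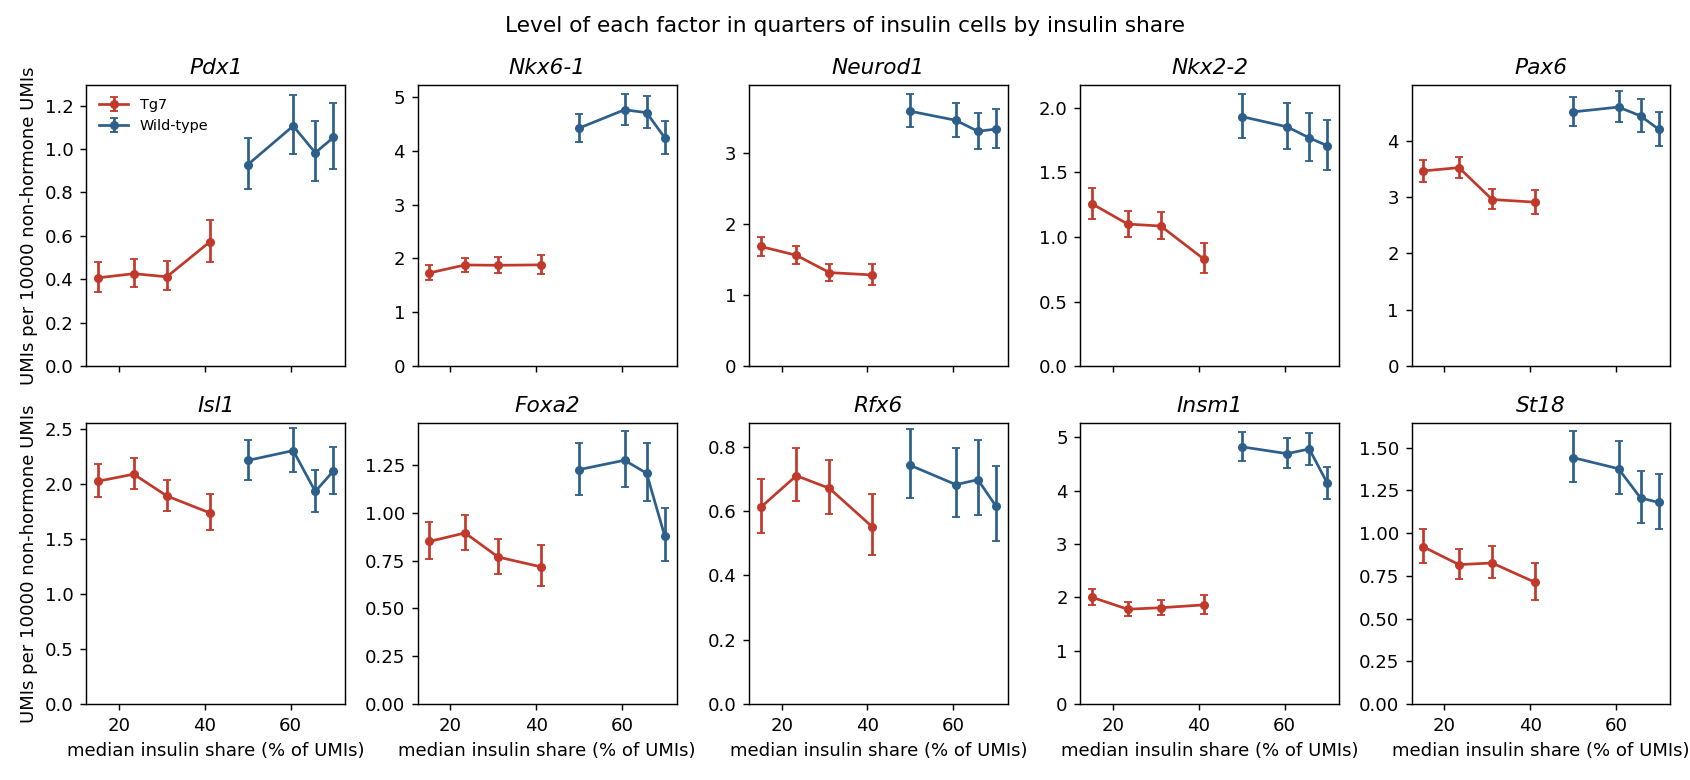
Level of each factor (UMIs per 10000 non-hormone UMIs, vertical axes starting at 0) in quartiles of insulin cells by insulin share, plotted at the median insulin share of the quartile (% of UMIs), for Tg7 and Wild-type, with 95% Poisson intervals and without cells with non-endocrine markers. Nkx2-2 in Tg7 lies between 1.26 in the lowest and 0.831 in the highest quartile.

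Other genes of the same network were counted in insulin cells as a frame for the 10 factors. Of 45 other islet transcription factors, 36 had at least 20 UMIs, of which 5 (lower) and 7 (higher) were past 1.5-fold in Tg7, near the 15.8% and 15.9% of all genes. Scaled to all UMIs, 2 were lower and 24 higher, beside 5.04% and 60.8% of all genes. Their median log2 ratio was 0.003, against -0.66 for the 10 factors and -0.041 for all genes. Mafa, which activates insulin in mature β-cells, had 306 UMIs in Tg7 against 4644 in Wild-type, or 23.2-fold lower (20.6 to 26.1), and Lmx1b was 2.02-fold lower (1.36 to 3.03). Irx2, a factor of glucagon cells, had 134 UMIs in Tg7 against 25 in Wild-type, a ratio of 3.51 (2.28 to 5.62). Gcg itself took 1.19% of the UMIs of Tg7 insulin cells and 0.191% of those of Wild-type insulin cells. In single-hormone insulin cells, where Gcg took 0.110% and 0.0344%, Irx2 had 53 and 20 UMIs, a ratio of 2.28 (1.34 to 4.02). Etv1 at 3.13 and Sox5 at 2.46 were also higher in Tg7.

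Of 29 partners and cofactors of the 10 factors, 28 were matched by symbol and had at least 20 UMIs. Of these, 3 were at least 1.5-fold lower and 2 higher, no larger a share than the 15.8% and 15.9% of all genes, and the median log2 ratio was -0.046. On the scale of all UMIs, 1 was lower and 18 were higher, beside 5.04% and 60.8%. Tle3, a Groucho family corepressor, had 301 UMIs in Tg7 against 838 in Wild-type, a ratio of 0.235 (0.206 to 0.269). Its relatives Tle1 at 2.49 (2.24 to 2.77) and Tle4 at 2.21 (1.80 to 2.72) were higher in Tg7. Tcf4, an E protein, was at 0.604, Spop at 0.719 and Hdac3 at 0.790, and all 3 turned when scaled to all UMIs, to 1.02, 1.21 and 1.33.

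Of 28 genes of β-cell function, 26 had at least 20 UMIs, of which 17 were at least 1.5-fold lower and 4 higher, beside 15.8% and 15.9% of all genes. Their median log2 ratio was -1.23. Slc2a2, the glucose transporter of β-cells and a target of Pdx1, had 644 UMIs in Tg7 against 4837 in Wild-type, a ratio of 0.0872. Ero1lb, an oxidoreductase of insulin folding, was at 0.0879, Ffar1, a fatty acid receptor, at 0.0570 and Trpm5, a cation channel, at 0.0105. Chgb, a granin, with 83757 and 9700 UMIs and a ratio of 5.66, and Cartpt, a neuropeptide, with 2040 and 48 UMIs and a ratio of 27.8, were higher in Tg7. On the scale of all UMIs, 13 of the 26 genes were lower and 8 higher, beside 5.04% and 60.8%.

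The study also lists epithelial genes with binding of Pdx1, Nkx6-1 or Neurod1 in public islet data, and these were counted here without regard to what binding means. Of 49 measured genes with Pdx1 binding, 16 were at least 1.5-fold lower and 0 higher in Tg7 insulin cells, beside 15.8% and 15.9% of all genes. Of 44 with Nkx6-1 binding, 16 were lower and 2 higher, and of 53 with Neurod1 binding, 20 were lower and 2 higher. With all UMIs as the scale, the counts were 6 lower and 17 higher, 3 and 17, and 7 and 17, beside 5.04% and 60.8%. The lists share genes and themselves hold 2, 3 and 3 of the 10 factors. The lower genes include endothelial markers, namely Cdh5 (ratio 0.188) in the Pdx1 and Neurod1 lists and Pecam1 (0.285) in the Pdx1 list. Endothelial markers summed to 1.08 per 10000 in Tg7 and 5.25 in Wild-type insulin cells. The counts were not repeated without cells with non-endocrine markers, so the part of such cells in them was not tested. The lists come from the paper that reported these libraries, which drew the binding from public islet data. They were chosen here with earlier results of these data known, and are not independent evidence of a direction.

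Finally, the genes whose log2 level ran most alike with each factor over the 8 sets of cells (4 groups in 2 libraries) were looked up by Pearson's r among 7657 genes with at least 200 UMIs in all. Pdx1 was nearest to Hadh (r = 0.985) and Pikfyve (r = 0.981), and Pax6 to Cnot9 (r = 0.991) and Mindy2 (r = 0.965). Nkx6-1 was nearest to Magt1 and Ndufb9, Neurod1 to Rnase4 and Fam129b, Nkx2-2 to U2surp and Dlst, and Isl1 to Hsp90aa1 and Tspo. Foxa2 was nearest to Rcan2 and Sdhaf2, Rfx6 to Trappc5 and Sos1, Insm1 to Daam1 and Psmd6, and St18 to Ppia and Avpi1. Among the 10 factors themselves, the most alike were Pdx1 and Pax6 (r = 0.899) and Pdx1 and Insm1 (r = 0.831). These values are descriptions over 8 points that come from 2 libraries and share their depth, with Sst and Ppy cells thinly covered.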

How the data were processed

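The authors deposited 1 raw matrix of UMI counts per library, made by Cell Ranger 3.0.2, after bcl2fastq 2.17.1.14, on the mm10 mouse build. Its annotation version was not given in the sources used here. Per the study's methods, doublets were removed and libraries integrated in later steps, none of which entered the counts used here. Barcodes under 1000 UMIs or over 20% mitochondrial UMIs were left out, and no doublets were removed. Counts were summed per cell group and library, scaled to 10000 UMIs outside the 7 hormone genes, and compared as ratios with conditional exact binomial intervals, levels with exact Poisson intervals and shares of cells with exact Clopper-Pearson intervals. Genes with at least 20 UMIs over both libraries were counted past 1.5-fold. With 1 library per group no test was made.

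Alternatives were scaling to all UMIs, TMM factors or the median gene, no or a stricter barcode filter (2000 UMIs and 10%), leaving out Scrublet calls (10 Tg7 and 6 Wild-type barcodes) or cells with non-endocrine markers, single-hormone or tdTomato cells only, means over cells, a fold of 2 and other minimum counts. Leaving out non-endocrine cells from the quartiles, the contrasts of mixed with single-hormone cells and of cells with and without tdTomato, and that of single-hormone insulin with Gcg cells were chosen after seeing the data. The 10 factors and all lists were chosen with earlier results of these data known. Named from each list were, among genes with at least 100 UMIs, the 4 farthest in the direction of its median and the 2 farthest the other way, and for each factor the 2 genes with the highest correlation. For the lists of genes with binding, only counts are given, apart from the endothelial markers Cdh5 and Pecam1. A gene that this rule names in the list of other islet transcription factors is not reported here. The intervals and calls were tested on simulated Poisson counts with equal totals. These hold no variation between cells or libraries, so they check the calculation and not the spread of real libraries. Sequences came from RefSeq (GRCm38.p6) and 3′ UTRs from GENCODE vM1 (NCBIM37). The planned comparison of homeodomain proteins was not run. Python 3.11.15, numpy 2.4.6, scipy 1.17.1, pandas 2.3.3, scanpy 1.11.5, matplotlib 3.10.9, R 4.3.3 and edgeR 4.0.16 (TMM factors only) were used.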

Additional observations from a re-analysis of the deposited data

Results flagged for a closer look

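Nkx6-1 in Gcg cells had a Tg7 over Wild-type ratio of 1.52 (1.03 to 2.28), while its ratio in insulin cells was 0.418, so that the libraries differed in opposite directions in the 2 groups of cells. In single-hormone Gcg cells the ratio was 0.609. Foxa2 in Gcg cells had a ratio of 1.36 (1.03 to 1.80), while its ratio in insulin cells was 0.723, or 1.22 when scaled to all UMIs, where the directions were no longer opposite. The difference between the groups of cells was not tested for either gene, since each group of mice was 1 library.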

How the results depend on the processing

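Scaled to all UMIs, 0 factors were at least 1.5-fold lower and 2 higher in Tg7 insulin cells, and 6 ratios went from below to above 1, to 1.04 for Nkx2-2, 1.09 for St18, 1.22 for Foxa2, 1.27 for Pax6, 1.58 for Isl1 and 1.63 for Rfx6. Under the other alternatives the count of lower factors in insulin cells was 4 to 6. In Gcg cells the count of lower factors was 2 when scaled to all UMIs, in single-hormone cells and as a mean over cells, and 0 with TMM factors, with the median gene set to 0, without cells with non-endocrine markers and at a fold of 2. The count of higher factors in Gcg cells was 0 when scaled to all UMIs, without Scrublet calls, in single-hormone cells and at a fold of 2, and the ratio of Nkx6-1 there turned to 0.609 in single-hormone cells. In Sst cells the count of lower factors was 1 in single-hormone cells and at a fold of 2, and 0 with a minimum of 100 UMIs. In Ppy cells the count of lower factors was 1 when scaled to all UMIs, with the stricter barcode filter, in single-hormone cells and as a mean over cells, and 0 at a fold of 2 or with a minimum of 100 UMIs. The count of higher factors in Ppy cells was 2 when scaled to all UMIs or by TMM factors, and 0 in single-hormone cells, at a fold of 2 or with a minimum of 100 UMIs. The share of all genes past the same fold was counted only for the main setting and for scaling to all UMIs. The other counts therefore have no background beside them. The cause of these moves was not tested. Of the ratios of single factors under alternatives, 84 of 100 in insulin cells, 88 of 90 in Gcg, 85 of 90 in Sst and 89 of 90 in Ppy cells stayed within the interval of the value reported. Sst and Ppy cells are limited by their few UMIs. No paired analysis was possible because each group was 1 library.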
